A study of Mus musculus with 29 samples.

Results

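Genes of the circadian clock were read liver by liver in mice whose bile duct had been tied. The 10 genes were chosen by name as members of the clock: the activators Arntl (gene ID 11865), Npas2 (18143) and Clock (12753), the repressors Cry1 (12952), Per2 and Per3 (18628), the nuclear receptors Nr1d1 (217166) and Nr1d2 (353187), and the output factors Dbp (13170) and Tef (21685). Of these, 9, all but Per2, had an array row annotated to 1 gene symbol, out of 22180 genes with such a row, and all 9 passed the filter on low values that left 14699 genes for testing. The Per2 row is annotated to a second symbol as well, so its values were not used here. Tef had 2 rows, of which the row of higher mean was used.

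The animals were male C57BL/6N mice, all titled wt (wild type), aged 8 to 10 weeks on standard diet, unrestricted before and after the operation. Their extrahepatic common bile duct was ligated (bile duct ligation, BDL), which blocks bile flow and leads to cholestasis, or they had a sham operation. Whole liver RNA was measured on 29 arrays: sham at day 1 (3 arrays), day 3 (2) and day 7 (4), and BDL at days 1, 3, 7 and 21 (5 each). No sham group of day 21 was among the samples, so BDL at day 21 was set against sham at day 7, and time since the operation and ligation cannot be told apart there. BDL at days 7 and 21 share these sham arrays. Titles carry different animal numbers. Replicate numbers below follow accession order and only name an array. The sources used here do not give the hour of day at which each liver was taken. A difference between groups therefore cannot be told apart from a difference in that hour.

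The clock is a feedback loop of transcription that runs in nearly every cell. ARNTL (also called BMAL1) pairs with CLOCK or its relative NPAS2 and, through E-box sites, switches on the Per, Cry and Nr1d genes and Dbp; PER and CRY proteins then shut the pair down, and NR1D1 and NR1D2 (REV-ERB alpha and beta) repress Arntl, Npas2 and Clock through sites they share with ROR receptors. DBP and TEF bind D-box sites and pass the rhythm on to other genes. In mouse liver Arntl and Npas2 peak at an hour when Dbp, Tef and Per3 are near their trough, and feeding, glucocorticoids and body temperature set the phase, so the level of a clock gene depends on the hour of sampling.

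The letters of these sites stand in some of the members' promoters, which are shown because the loop is defined by such sites. RefSeq promoter windows of build GRCm38.p6 (250 bases before to 50 after a gene's start) were searched on both strands for the E-box CACGTG, the D-box TTATGTAA and the REV-ERB/ROR half-site TAGGTCA, none of which contains another. All members but Per2 had entries, 13 windows in all. CACGTG stood in windows of Cry1 and Tef (7.15% of 32851 promoters hold it), TTATGTAA in that of Per3 (0.938%) and TAGGTCA in that of Arntl (2.61%). Capitals mark the matched letters; a match is a description of the sequence, and binding was not measured. The stretches, 5′ to 3′ on the gene's strand, lie at chr4:151044804-151044883 (minus strand, Per3), chr10:85185072-85185151 (minus, Cry1), chr15:81802509-81802588 and chr15:81811239-81811318 (plus, before 2 starts of Tef) and chr7:113207529-113207558 (plus, just after a start of Arntl).
Per3: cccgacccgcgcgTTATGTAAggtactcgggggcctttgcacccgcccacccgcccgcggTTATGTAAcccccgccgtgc
Cry1: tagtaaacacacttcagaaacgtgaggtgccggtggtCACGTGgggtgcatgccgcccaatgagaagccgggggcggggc
Tef, first start: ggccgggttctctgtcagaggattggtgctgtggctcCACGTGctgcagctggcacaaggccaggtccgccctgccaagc
Tef, other start: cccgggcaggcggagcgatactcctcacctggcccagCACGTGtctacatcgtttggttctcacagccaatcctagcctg
Arntl: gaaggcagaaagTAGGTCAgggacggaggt
Per3 thus carries the D-box letters at 2 places, 205 and 158 bases before its start, and among the members only Per3 carries them in these windows.

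Values are the authors' normalized log2 levels. The hepatocyte markers Alb, Apoa1, Ttr, Serpina1a, Hnf4a and Tat had a mean log2 level of 12.1 to 12.5 in every array. Array medians ran from 4.90 to 5.13. At day 1, 4 arrays stood apart (BDL replicates 2 and 3, sham replicates 1 and 3). Their log2 values had an SD over genes of 1.55 to 1.58, against 1.64 to 1.70 elsewhere, and their snoRNA genes (small nucleolar RNAs) a mean log2 level of 8.88 to 9.33, against 7.62 to 8.41. Changes are differences of mean log2 levels ± SE, first group minus second, and were called at a Benjamini-Hochberg adjusted p under 0.05 over all genes tested (limma).

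At day 21, 7 of 9 clock genes passed the test against sham (25.2% of all genes did): Arntl and Npas2 were higher and Dbp, Tef, Per3, Nr1d1 and Nr1d2 lower, with a median difference over the 9 of -0.78 against 0.02 for all genes. Of all genes 17.3% were called higher and 7.9% lower in that comparison. At day 3, Cry1 was higher and Nr1d1 lower (2 of 9, against 10.2% of genes). At day 7, Cry1 was lower (1 of 9, against 19.2%). At day 1 limma called none of the 9 (13.3% of genes), with 2 at an unadjusted p under 0.05 (25.9% of genes). Over all 7 groups together, 7 of 9 members differed by the F-test (51.6% of genes), and Arntl (adjusted p = 0.0613) and Clock (0.454) did not pass. Whole liver was measured, so fewer cells of a type and less RNA per cell cannot be told apart. Nor can ligation and the hour of sampling be told apart in these differences.

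**Figure D1:**
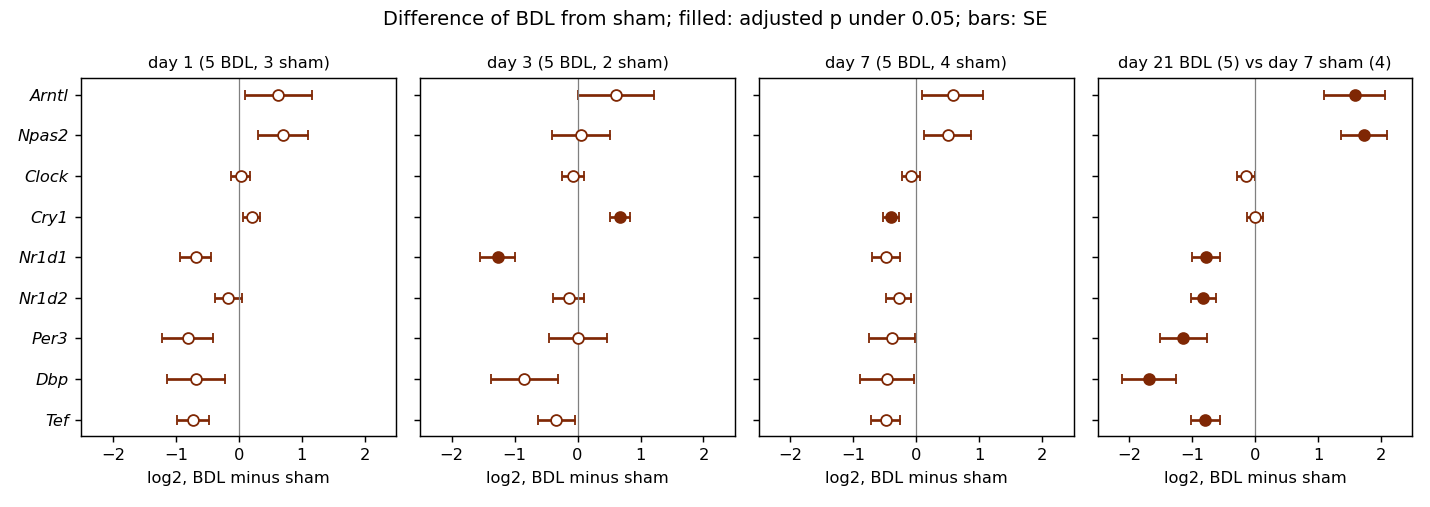
Difference of BDL from sham in log2 units (horizontal axis) for each clock gene (rows) at days 1, 3 and 7, and for BDL day 21 against sham day 7; points are differences of group means, bars the SE, and filled points have an adjusted p under 0.05. Filled points number 2 at day 3, 1 at day 7 and 7 at day 21.

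Arntl, the activator without which the loop stops, was high in BDL livers of day 21 except for 1. Its log2 levels there were 5.72, 8.45, 8.69, 8.53 and 8.34 in replicates 1 to 5. The 4 sham livers of day 7 were at 6.13, 6.48, 5.92 and 6.93. Replicate 1 of BDL day 21 was thus below every sham liver of day 7 and the other 4 above all of them. The mean difference was 1.58 ± 0.49 (2.99-fold, adjusted p = 0.0161), and 2.14 (adjusted p = 0.000166) without that replicate. That replicate was the extreme liver of its group, so leaving it out had to enlarge the difference. The call was lost without sham day 7 replicate 3 (1.43, adjusted p = 0.0540).

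Before day 21 the spread of Arntl within a group was wide. In sham livers its log2 levels were 6.03, 7.47 and 8.06 at day 1, and 5.84 and 7.32 at day 3. In BDL livers they were 8.55, 7.96, 7.33, 7.44 and 7.79 at day 1 and 6.84, 6.98, 7.34, 7.01 and 7.78 at day 3. At day 7 they were 8.03, 6.14, 6.24, 6.77 and 7.54. BDL and sham overlapped on each of these days. The differences were 0.63 ± 0.53 at day 1, 0.61 ± 0.61 at day 3 and 0.58 ± 0.49 at day 7, with adjusted p of 0.496, 0.619 and 0.463. At day 1 it was 0.05 without sham replicate 1 and 1.07 without sham replicate 3.

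Npas2, which stands in for CLOCK as partner of ARNTL, was higher in BDL livers of day 21 than in sham livers of day 7. Its log2 levels in BDL livers of day 21 were 5.41, 6.92, 7.54, 7.18 and 7.18. In sham livers of day 7 they were 5.04, 5.33, 5.35 and 4.75. The groups did not overlap, which held for 2 of 9 members and 25% of all genes, although replicate 1 of BDL day 21 was just above the highest sham. The difference was 1.73 ± 0.37 (3.31-fold, adjusted p = 0.000703) and was called under every alternative tried. Npas2 at day 1 of BDL stood at 6.89, 6.24, 4.82, 6.32 and 6.23 on the log2 scale. The corresponding sham livers were at 5.04, 5.51 and 5.66, so 4 of 5 BDL livers lay above them and replicate 3 below (difference 0.70 ± 0.40, adjusted p = 0.283). Npas2 differences at day 3 (0.06 ± 0.46) and day 7 (0.50 ± 0.37) did not pass.

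Clock, the other partner, stayed within a log2 range of 9.34 to 10.33 over all 29 arrays. BDL minus sham differences ran from -0.14 ± 0.14 at day 21 to 0.03 ± 0.16 at day 1, with no adjusted p under 0.527. The SE of a day 21 difference was 0.14 log2 units for Clock, against 0.49 for Arntl.

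**Figure D2:**
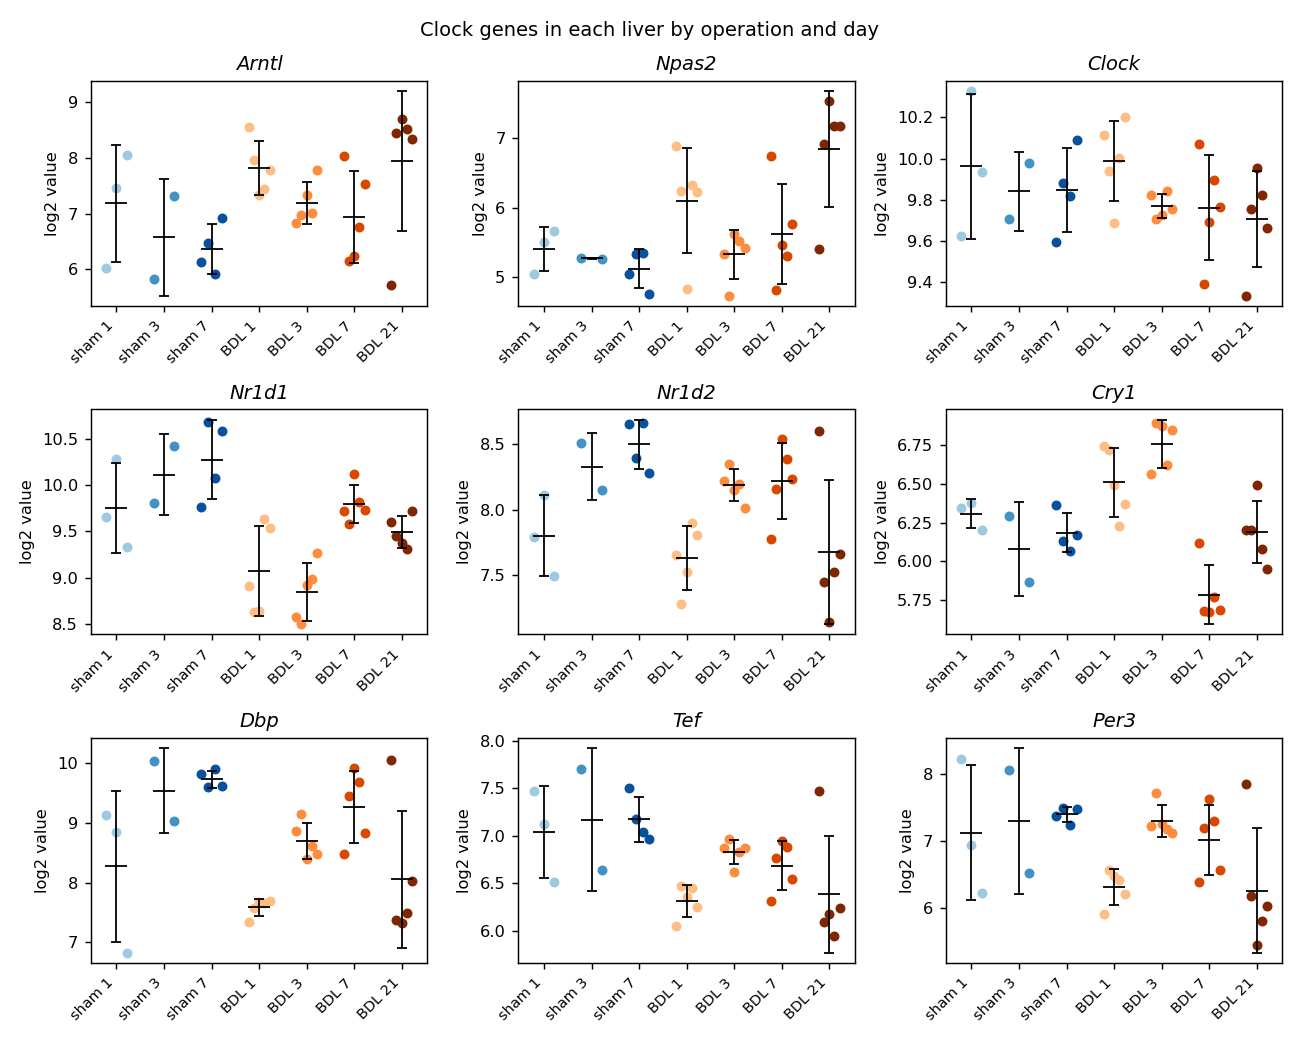
Normalized log2 level (vertical axis) of the 9 measured clock genes, 1 panel each, in the 7 groups (operation and day, horizontal axis); points are single livers and black marks the group mean ± SD. In BDL day 21, 1 liver lies apart from the other 4 for Arntl, Npas2, Dbp, Tef, Nr1d2 and Per3.

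Nr1d1 encodes REV-ERB alpha, a heme-binding repressor of Arntl. Nr1d1 was called lower than sham at day 3 of BDL, and at day 1 the difference did not pass. At day 3 its log2 levels were 8.57, 8.50, 8.92, 8.99 and 9.26 in BDL and 9.80 and 10.42 in sham, with no overlap (2 of 9 members, 26.4% of genes). The difference was -1.27 ± 0.28 (2.41-fold lower, adjusted p = 0.00294). Only 2 sham arrays stand behind it: without sham day 3 replicate 2 it was -0.96 (adjusted p = 0.130), while against all 9 sham arrays of the study it was -1.22 (adjusted p = 1.89e-05).

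At day 1 Nr1d1 stood at 8.90, 8.63, 8.64, 9.64 and 9.53 in BDL and at 9.65, 10.28 and 9.33 in sham on the log2 scale. The difference of -0.68 ± 0.24 did not pass (adjusted p = 0.0595), and it was -0.88 (0.00392) with the 4 arrays that stand apart as a term of the model. Over all alternatives beside leaving out 1 array it ran from -0.997 to -0.381 (adjusted p 0.000263 to 0.342). With 1 array left out it ran from -0.897 to -0.421 (adjusted p 0.0257 to 0.283). By day 7 the BDL livers were at 9.72, 9.58, 10.12, 9.82 and 9.73. Nr1d1 had risen by 0.95 ± 0.21 from BDL day 3 (adjusted p = 0.00602), with no overlap between these days (2 of 9 members, 7.49% of genes), and this call held under every alternative tried. Sham livers of day 7 were at 9.77, 10.68, 10.07 and 10.58 (difference -0.48 ± 0.22, adjusted p = 0.139).

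At day 21 Nr1d1 stood at 9.60, 9.45, 9.37, 9.31 and 9.72 in BDL, all below the sham livers of day 7. The difference was -0.78 ± 0.22 (adjusted p = 0.00936). It lost its call without sham day 7 replicate 2 (-0.65, adjusted p = 0.0522). Replicate 1 of BDL day 21, which stood apart for Arntl, was within the range of the other 4 here.

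Nr1d2 encodes the related REV-ERB beta. Its log2 levels in BDL day 21 were 8.60, 7.45, 7.14, 7.52 and 7.66, against 8.65, 8.39, 8.66 and 8.28 in sham day 7. In 4 of 5 BDL livers Nr1d2 was below all sham livers, and in replicate 1 it was within their range. The difference was -0.82 ± 0.20 (adjusted p = 0.00249) and was called under every alternative tried. From BDL day 1 (7.65, 7.28, 7.52, 7.90 and 7.81) to BDL day 3 (8.22, 8.35, 8.15, 8.20 and 8.01) Nr1d2 rose by 0.55 ± 0.19 (adjusted p = 0.0392) with no overlap. That call was lost under most left-out arrays of these groups and stood at 0.40 (adjusted p = 0.257) without the 4 arrays that stand apart. Sham day 1 (7.79, 8.12 and 7.49) was also below sham day 7 without overlap, and that difference of -0.70 ± 0.23 did not pass (adjusted p = 0.0678).

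Cry1, the late repressor of the loop, was above sham at day 3 of BDL and below it at day 7. At day 3 its log2 levels were 6.56, 6.89, 6.87, 6.62 and 6.85 in BDL and 6.29 and 5.87 in sham, with no overlap. The difference was 0.68 ± 0.16 (1.60-fold higher, adjusted p = 0.00479). It was 0.47 (adjusted p = 0.200) without sham day 3 replicate 2 and 0.56 (adjusted p = 0.000193) against all 9 sham arrays.

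At day 7 Cry1 stood at 6.12, 5.68, 5.67, 5.77 and 5.68 in BDL and at 6.36, 6.13, 6.07 and 6.17 in sham. Replicate 1 of BDL lay among the sham livers and the other 4 below them. The difference was -0.40 ± 0.13 (adjusted p = 0.0249), but leaving out any 1 of 5 arrays (replicates 2, 3 and 5 of BDL, 1 and 4 of sham) raised the adjusted p to between 0.0506 and 0.0909. Between BDL day 3 and BDL day 7 Cry1 fell by 0.97 ± 0.12 (adjusted p = 2e-05). These groups did not overlap, and the call held under every alternative tried.

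Cry1 was at 6.74, 6.72, 6.49, 6.23 and 6.37 in BDL day 1, with 6.35, 6.38 and 6.20 in sham day 1. By day 21 it was at 6.20, 6.20, 6.49, 6.08 and 5.95, and its difference from sham day 7 was 0.00 ± 0.13. Neither passed. The effect of ligation on Cry1 at day 7 minus that at day 1 was -0.60 ± 0.19 (adjusted p = 0.0649), and limma called no member in that test (4.33% of genes), with 1, Cry1, at an unadjusted p under 0.05 (17.3% of genes).

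Dbp, a D-box activator that swings more widely over the day than most liver genes, was low in the same 4 livers of BDL day 21 in which Arntl was high. Its log2 levels there were 10.05, 7.38, 7.33, 7.48 and 8.03. Sham day 7 stood at 9.82, 9.61, 9.90 and 9.62. Replicate 1 was above every sham liver and the other 4 more than a log2 unit below them. Over all 5 livers the difference was -1.68 ± 0.43 (3.21-fold lower, adjusted p = 0.00371), and the value without replicate 1 was -2.18 (adjusted p = 1.87e-05). As for Arntl, leaving out the extreme liver had to enlarge the difference.

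In BDL day 1 Dbp stood at 7.34, 7.58, 7.68, 7.65 and 7.69, a narrow range. In sham day 1 it was at 9.14, 8.85 and 6.82, so 2 sham livers were above and 1 below all BDL livers. The difference was -0.68 ± 0.46 (adjusted p = 0.378), and it was -1.41 without sham replicate 3 and -0.25 without sham replicate 1. Sham day 1 in turn lay below sham day 7 with no overlap (2 of 9 members, 12.2% of genes; -1.46 ± 0.48, adjusted p = 0.0726). In that comparison of sham days limma called no member (4.11% of genes), with 3 at an unadjusted p under 0.05 (23.3%).

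At day 3 Dbp stood at 8.86, 9.15, 8.40, 8.61 and 8.47 in BDL and at 10.05 and 9.04 in sham. At day 7 the BDL livers were at 8.48, 9.45, 9.92, 9.69 and 8.83. The groups overlapped on both days, with differences of -0.84 ± 0.53 and -0.46 ± 0.43 (adjusted p = 0.371 and 0.512). From BDL day 1 to day 3 the arrays of Dbp did not overlap (4 of 9 members, with Tef, Nr1d2 and Per3; 10.5% of genes), and the difference of 1.11 ± 0.40 missed the threshold (adjusted p = 0.0527). Limma called 2 of 9 members between these days, Nr1d2 and Per3 (18.5% of genes).

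Tef, a relative of Dbp that binds the same sites, had log2 levels of 7.47, 6.09, 6.17, 5.94 and 6.24 in BDL day 21. Sham day 7 was at 7.50, 7.17, 7.04 and 6.97. Replicate 1 was again among the sham livers and the other 4 below them (difference -0.79 ± 0.24, adjusted p = 0.0132; lost without sham day 7 replicate 1, at -0.68 and 0.0548). At day 1 BDL livers stood at 6.05, 6.47, 6.35, 6.44 and 6.25 and sham livers at 7.47, 7.12 and 6.51. These did not overlap (1 of 9 members, 13.2% of genes), and -0.72 ± 0.26 missed the threshold (adjusted p = 0.0593). At day 7, with BDL at 6.31, 6.76, 6.94, 6.88 and 6.54, Tef again did not overlap with sham (1 of 9, 20.1% of genes; -0.49 ± 0.24, adjusted p = 0.159).

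Per3, a period gene dispensable for the loop itself, followed Dbp and Tef. Its log2 levels were 7.84, 6.18, 5.44, 5.80 and 6.03 in BDL day 21. In sham day 7 they were 7.37, 7.49, 7.24 and 7.48, so replicate 1 was above all sham livers and the other 4 below. The difference was -1.14 ± 0.37 (2.20-fold lower, adjusted p = 0.0238). It was -1.53 (0.000589) without replicate 1, and its call was lost on leaving out any 1 of replicates 3, 4 and 5 of BDL or 2 and 4 of sham (-1.11 to -0.93, adjusted p 0.0511 to 0.0788). The larger value without replicate 1 followed from leaving out the extreme liver.

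Per3 in BDL day 1 stood at 5.90, 6.56, 6.47, 6.41 and 6.21 on the log2 scale, and in sham day 1 at 8.22, 6.93 and 6.22. By BDL day 3 it had risen to 7.23, 7.72, 7.25, 7.17 and 7.12, with no overlap between the days (0.99 ± 0.35, adjusted p = 0.0490). That call was lost when any 1 array of these groups was left out (adjusted p 0.0626 to 0.103). Per3 did not pass against sham at day 1 (-0.81 ± 0.41), day 3 (0.00 ± 0.46) or day 7 (-0.39 ± 0.37).

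**Figure D3:**
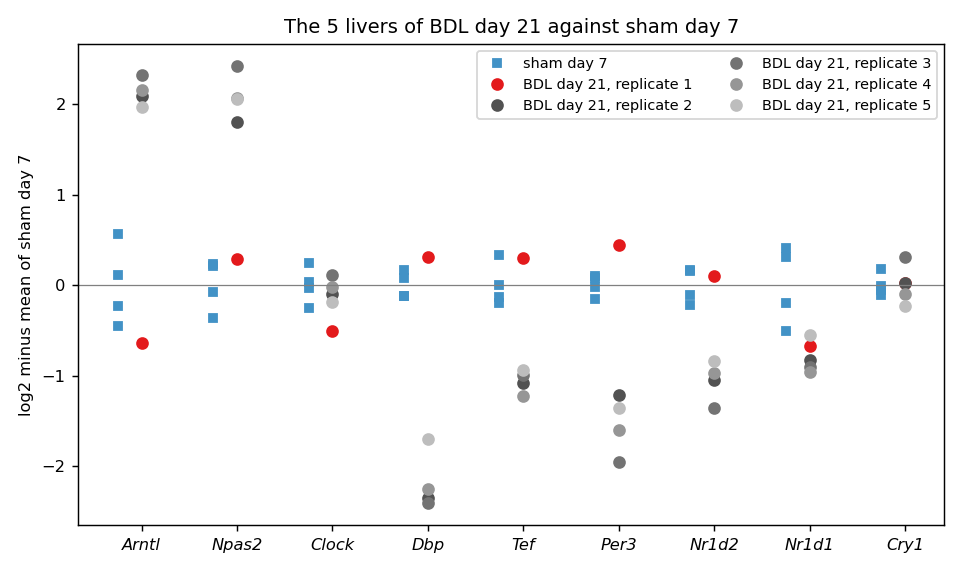
Log2 level minus the mean of sham day 7 (vertical axis) for the 9 clock genes (horizontal axis) in the 5 livers of BDL day 21 (circles, replicate 1 in red) and the 4 of sham day 7 (squares). Replicate 1 lies within the range of the sham livers for Tef and Nr1d2, above it for Npas2, Dbp and Per3 and below it for Arntl. The other 4 lie above the sham livers for Arntl and Npas2 and below them for Dbp, Tef, Per3 and Nr1d2.

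The single liver weighed on the later time course. From BDL day 7 to BDL day 21 limma called none of the 9 members (0.864% of genes), with 6 at an unadjusted p under 0.05 (8.15% of genes). Without BDL day 21 replicate 1, 4 were called (0.905% of genes): Arntl (1.56, adjusted p = 0.0369), Npas2 (1.59, 0.00930), Dbp (-1.72, 0.00722) and Nr1d2 (-0.78, 0.00930). That liver was the extreme one of its group in these genes. Its removal enlarged the differences by construction, so the added calls are no separate evidence. Between BDL day 3 and day 7, 2 of 9 were called, Nr1d1 and Cry1 (5.69% of genes). Sham day 3 and sham day 7 differed by limma in none of the members and in 0% of all genes; at an unadjusted p under 0.05 there were 0 members and 4.27% of genes. That count over all genes was also 0 with robust variance estimates and with array weights, and was 35 without sham day 3 replicate 1 and 5 without its replicate 2.

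The choice of sham arrays changed the day 1 count. When BDL day 1 was set against all 9 sham arrays rather than its own 3, 8 of 9 members were called (21.8% of genes): Arntl (1.13, adjusted p = 0.0444), Npas2 (0.85, 0.0380) and Cry1 (0.31, 0.0336) higher, and Dbp (-1.62, 0.00321), Tef (-0.81, 0.00201), Nr1d1 (-0.997, 0.000263), Nr1d2 (-0.60, 0.0200) and Per3 (-0.97, 0.0189) lower. That comparison mixes the days after the sham operation, and the 9 sham livers themselves spanned 5.84 to 8.06 in Arntl and 6.82 to 10.05 in Dbp on the log2 scale.

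Other cell types moved with the ligation groups. The shares of all genes called against sham, in either direction, were 13.3%, 10.2%, 19.2% and 25.2% at days 1, 3, 7 and 21. From BDL day 1 to day 3 the share was 18.5%. At day 21 against sham day 7, markers were called higher for cholangiocytes in 6 of 6 (median difference 1.42), stellate cells in 6 of 7 (1.81), Kupffer cells in 5 of 5 (1.41), monocytes and macrophages in 6 of 6 (1.77) and neutrophils in 4 of 4 (0.86). Hepatocyte markers had 0 of 6 higher and 1 lower (0.06). Lymphocyte markers had 1 of 3 lower, and endothelial markers 1 of 5 higher and 2 lower. The mean log2 level of the cholangiocyte markers was 5.76 to 6.04 in sham day 7 and 7.14 to 7.49 in BDL day 21, with 1 of the 6 under the filter level of 5 in sham and none in BDL. For stellate markers it was 6.59 to 8.47 against 8.49 to 9.06. At day 7 the same 5 lists had 6 of 6, 6 of 7, 5 of 5, 5 of 6 and 4 of 4 called higher, at day 3 they had 5, 2, 1, 3 and 1, and at day 1 they had 2, 0, 1, 3 and 3. Endothelial markers were called lower in 3 of 5 at day 1 (median difference -0.74) and 2 of 5 at day 3 (-0.08), and 1 of 5 Kupffer markers was lower at day 1. At days 1, 3 and 7, hepatocyte markers had 0, 1 and 0 of 6 higher and 1, 2 and 2 lower. From BDL day 1 to day 3, where Nr1d2 and Per3 were called, markers were higher in 5 of 5 for endothelial cells (median difference 1.29), 6 of 7 for stellate cells (1.04), 4 of 5 for Kupffer cells (0.76), 4 of 6 for cholangiocytes (0.65) and 2 of 6 for monocytes and macrophages (0.46), and lower in 2 of 4 for neutrophils (-0.69). The part of these cells in the clock gene differences was not tested; the relation within groups is given below.

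In 7 of the 9 clock genes, livers of the same group differed more than in most genes. The SD within groups, pooled over the 7 groups, was 0.81 log2 units for Arntl, larger than that of 99.7% of genes tested, 0.71 for Dbp (99.5%), 0.62 for Per3 (99.1%) and 0.61 for Npas2 (99.0%). It was 0.38 for Tef (94.2%), 0.36 for Nr1d1 (92.6%) and 0.32 for Nr1d2 (88.3%). Clock (0.22, 56.0%) and Cry1 (0.19, 35.3%) were near the median gene, at 0.21. BDL day 21 replicate 1 weighs in several of these values. Over the 5 livers of that group the SD was 1.25 for Arntl, 1.15 for Dbp, 0.93 for Per3 and 0.83 for Npas2. In the other 4 it was 0.15, 0.32, 0.32 and 0.25. For Tef these SDs were 0.62 and 0.13, for Nr1d2 0.55 and 0.22, and for Nr1d1 0.17 and 0.18. All are descriptions of single genes, with no test.

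The deviations of single livers from their group mean were shared between genes in opposite directions. Over the 36 pairs of members, 18 were correlated (permutation within groups, 100000 resamples, Benjamini-Hochberg over the 36), 9 positively and 9 negatively, and 17 of these also by Spearman's rho. Shares over all genes were taken for Arntl and Dbp only, at an unadjusted permutation p under 0.05. With Arntl 5.33% of genes were correlated positively and 3.17% negatively, and with Dbp 3.9% and 4.04%. Arntl and Dbp had r = -0.882 (adjusted p = 0.00027, rho = -0.866, n = 29). Arntl ran opposite to Per3 (r = -0.893, rho = -0.849, permutation adjusted p = 0.000463) and to Tef (r = -0.882, rho = -0.815, 0.000585), and with Npas2 (r = 0.735, rho = 0.635, 0.00076) and Clock (r = 0.728, rho = 0.694, 0.00168). Dbp, Tef and Per3 ran together, at r = 0.903 for Dbp and Tef (rho = 0.872), 0.896 for Dbp and Per3 (rho = 0.787) and 0.905 for Tef and Per3 (rho = 0.846). Permutation adjusted p were 0.00027, 0.00027 and 0.000288. Of the 12 pairs of an activator with Dbp, Tef, Per3 or Nr1d2, 9 were called, all negative. Clock with Dbp (r = -0.473, rho = -0.485, permutation adjusted p = 0.116), Clock with Nr1d2 (-0.364, rho = -0.24, 0.195) and Npas2 with Nr1d2 (-0.525, rho = -0.326, 0.0767) did not pass.

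**Figure D4:**
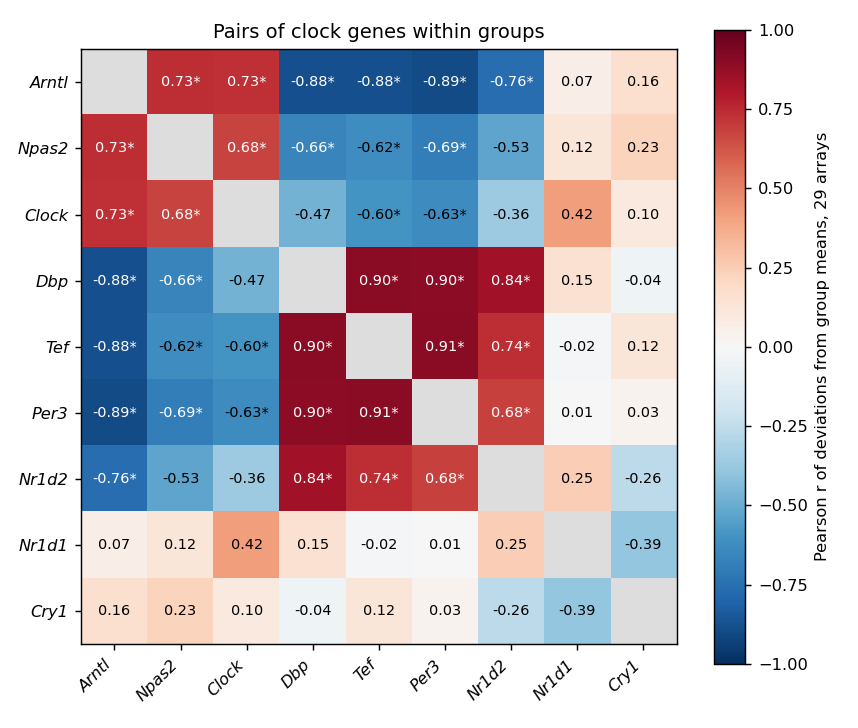
Pearson correlation (colour scale) of deviations from the group mean for each pair of the 9 clock genes over 29 arrays; an asterisk marks an adjusted permutation p under 0.05. Arntl, Npas2 and Clock form a positive block, Dbp, Tef, Per3 and Nr1d2 another, the called pairs between the blocks are negative, and Nr1d1 and Cry1 are in no called pair.

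Nr1d1 and Cry1 were in none of the 18 pairs. For Arntl and Nr1d1 r was 0.0681 (permutation adjusted p = 0.815), and for Arntl and Nr1d2 it was -0.758 (0.00612), although both encode repressors of Arntl. Nr1d1 and Nr1d2 themselves had r = 0.246 (0.239). Nr1d1 and Cry1 were also the genes called at day 3.

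The relation was looked at in subsets of the arrays. The 18 pairs were picked on all 29 arrays, which include these subsets, and they share genes. Counts among them in a subset are therefore no separate evidence. In the 20 BDL arrays alone all 18 pairs were called, with r = -0.925 for Arntl and Dbp. In the 9 sham arrays alone r was -0.792 for Arntl and Dbp, and the sign was that of the BDL arrays in 18 of 18 pairs. No pair passed there (smallest adjusted p = 0.45), with 2 of 36 at an unadjusted exact permutation p under 0.05; 288 orders are possible in so few arrays. Without the 2 arrays farthest from the median of the first gene, 17 of the 18 were called, and without the 4 arrays that stand apart all 18 were. Without BDL day 21 replicate 1, 13 were, among them Arntl with Dbp (r = -0.788, permutation adjusted p = 0.00438). The 5 lost were Arntl with Nr1d2 (-0.555), Clock with Tef (-0.479), Clock with Per3 (-0.530), Tef with Nr1d2 (0.501) and Nr1d2 with Per3 (0.447). Without the 2 farthest arrays r for Arntl and Dbp was -0.765, and Arntl with Nr1d2 was the pair lost (-0.518).

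**Figure D5:**
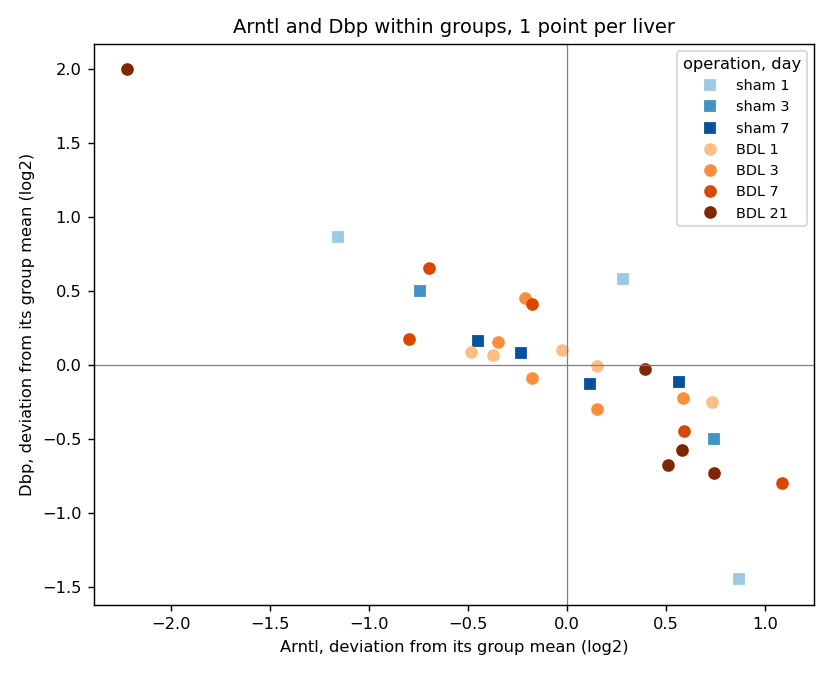
Deviation of Dbp (vertical axis) against that of Arntl (horizontal axis) from their group means in log2 units, 1 point per liver, squares for sham and circles for BDL, coloured by operation and day. The points fall from upper left to lower right, with BDL day 21 replicate 1 at the far upper left.

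Read against the mean of all 29 arrays, Arntl and Dbp lay on opposite sides in 25 of 29 livers. Here group means were left in, and the count describes the same arrays as the correlation, so it is no separate evidence. All 5 BDL livers of day 1 had Arntl above and Dbp below its mean, as had 4 of 5 of BDL day 21. All 4 sham livers of day 7 had the reverse, and so did replicate 1 of BDL day 21. In the other groups, Arntl was above and Dbp below its mean in 2 of 5 livers of BDL day 3, 1 of 5 of BDL day 7, 1 of 3 of sham day 1 and 0 of 2 of sham day 3. The reverse was seen in 2, 3, 1 and 1 of them, and 1 liver of each of these groups had both genes on the same side.

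Array properties and marker levels were set against the same deviations. The mean levels of the 8 marker lists, the snoRNA level and the SD of the array were each correlated with the deviations of Arntl and of Dbp, and in these 20 relations no permutation adjusted p was under 0.831. The r farthest from 0 were 0.382 (rho = 0.179) for Dbp with hepatocyte markers and -0.351 (rho = -0.267) with cholangiocyte markers.

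Further clock genes were compared with sham in the same way. Of 14 tested, 2 were called higher and none lower at day 1 (median difference 0.02, as over all genes), and 1 higher and 1 lower at day 3 (0.29). At day 7, 3 were higher and 2 lower (0.05), and at day 21, 1 higher and 2 lower (-0.04). Of all genes, 13.3%, 10.2%, 19.2% and 25.2% were called in either direction at days 1, 3, 7 and 21. Csnk1e, a kinase that marks PER proteins for decay, was called higher on all 4 days, by 0.45 ± 0.13, 0.55 ± 0.15, 0.71 ± 0.12 and 0.97 ± 0.12 (adjusted p = 0.0248, 0.0190, 0.000104 and 7.45e-07). Bhlhe41 (DEC2), an E-box repressor, was called lower at days 3, 7 and 21, with differences of -1.27 ± 0.28, -1.11 ± 0.23 and -1.32 ± 0.23; its mean log2 level in BDL day 3 was under the filter level of 5. Hlf, the third D-box factor beside Dbp and Tef, was lower at day 7 (-0.52 ± 0.15, adjusted p = 0.0119) and day 21 (-0.65 ± 0.15, 0.00144). Rora was higher at day 1 (0.40 ± 0.12), and Hdac3 (0.33 ± 0.10) and Timeless (0.46 ± 0.16) at day 7. Per1, Cry2, Nfil3 and Ciart passed on none of the 4 days; at day 21 Per1 was at 0.04 ± 0.47, Cry2 at -0.15 ± 0.17, Nfil3 at 0.26 ± 0.25 and Ciart at -0.97 ± 0.46.

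Leaving out 1 array ended several of these calls. Csnk1e was not called at day 1 without BDL replicate 4 or sham replicate 1 or 3 (0.38 to 0.43, adjusted p 0.0513 to 0.135), nor at day 3 without sham replicate 1 (0.31, 0.437), and Bhlhe41 at day 3 was at -1.01 (0.111) without that sham array. Hlf at day 7 was at -0.43 (adjusted p = 0.0630) without sham replicate 2, and Hdac3 at 0.20 (0.140) without sham replicate 1. Rora lost its call without BDL replicate 1 or sham replicate 1 or 3 (0.32 to 0.35, adjusted p 0.0562 to 0.142), and Timeless without any 1 of BDL replicates 2, 3 and 5 and the 4 sham arrays (0.38 to 0.48, 0.0584 to 0.121).

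Within groups, some of these genes moved with Arntl or Dbp. Of 52 relations of Arntl and Dbp with 26 further genes, Nfil3, a D-box repressor, had r = 0.780 (rho = 0.708) with Arntl and -0.791 (rho = -0.714) with Dbp, both with a permutation adjusted p of 0.00135. Without the 2 farthest arrays these were 0.705 and -0.689. Ciart, a target and inhibitor of the ARNTL pair, had r = -0.723 (rho = -0.595, 0.0238) with Arntl and 0.699 (rho = 0.547, 0.0140) with Dbp, and -0.486 and 0.707 without the 2 farthest arrays. Of the 14 further clock genes, Dbp was correlated with 5 positively and 2 negatively, and Arntl with 1 positively and 2 negatively. At an unadjusted permutation p under 0.05 these were 6 and 2 for Dbp (3.9% and 4.04% of all genes) and 2 and 3 for Arntl (5.33% and 3.17%). Without BDL day 21 replicate 1 they were 2 and 1 for Dbp and 1 and 1 for Arntl.

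Clock-controlled liver genes, 12 tested, were called against sham in both directions. There were 2 higher and 3 lower at day 1 (median difference 0.13), 1 and 4 at day 3 (-0.02), 0 and 2 at day 7 (0.03) and 1 and 4 at day 21 (-0.70). The shares of all genes called in either direction on these days were 13.3%, 10.2%, 19.2% and 25.2%. Elovl3, an elongase of very long fatty acids, was lower on days 3, 7 and 21 (-4.62 ± 0.54, -3.68 ± 0.43 and -5.90 ± 0.43, adjusted p = 1.83e-06, 4.71e-07 and 7.41e-11). Gys2, liver glycogen synthase, was lower on all 4 days (-1.03 ± 0.26, -1.10 ± 0.29, -0.94 ± 0.23 and -1.27 ± 0.23). Upp2, a uridine phosphorylase, was lower at day 1 (-2.92 ± 0.58) and day 21 (-2.04 ± 0.54). Insig2, which holds back SREBP processing, was higher at day 1 (1.42 ± 0.24) and day 21 (0.83 ± 0.22), and Nampt, which makes NAD, at day 1 (1.11 ± 0.29) and day 3 (1.69 ± 0.33). Cyp7a1, the rate-limiting enzyme of bile acid synthesis, was lower at day 1 (-5.65 ± 0.86) and day 3 (-3.43 ± 0.99). Its mean log2 level in BDL day 1, at 4.29, was under the filter level of 5, where sizes depend on the background.

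Some of these calls rested on single arrays. Rgs16, a brake on G protein signals, was called at day 3 (-2.12 ± 0.69, adjusted p = 0.0466), but its log2 levels were 9.29 and 5.38 in the 2 sham livers and 4.89 to 5.84 in BDL, so the groups overlapped. Without sham replicate 1 the difference was -0.16 (adjusted p = 0.949), and the call was also lost without any 1 of BDL replicates 1 to 4 (adjusted p 0.0588 to 0.0819). Without that same sham array Gys2 at day 3 was at -0.71 (adjusted p = 0.322). Nampt was at 0.72 (adjusted p = 0.149) at day 1 without sham replicate 3, and at 1.09 (0.129) at day 3 without sham replicate 2. Cyp7a1 at day 3 lost its call without either sham array or any 1 of BDL replicates 3, 4 and 5 (-3.87 to -2.67, adjusted p 0.0511 to 0.204).

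Cyp7a1 at BDL day 3 was split between livers, at 10.99, 10.08, 5.74, 6.84 and 4.62 on the log2 scale. The 2 high livers were those with the highest Dbp of that group (8.86 and 9.15). Over all 29 arrays Cyp7a1 had r = 0.294 with the deviations of Dbp (rho = 0.457, permutation adjusted p = 0.0336). Dbp was correlated positively with 9 of the 12 clock-controlled genes and negatively with none, with Usp2 at r = 0.860 (rho = 0.793), Gys2 at 0.788 (rho = 0.767) and Wee1 at 0.762 (rho = 0.744), at permutation adjusted p of 0.00135, 0.00475 and 0.00135. Without the 2 farthest arrays these r were 0.830, 0.752 and 0.721. Arntl was correlated negatively with 9 and positively with 1, Elovl3 (r = 0.586, rho = 0.610, permutation adjusted p = 0.00539). At an unadjusted permutation p under 0.05, Dbp was correlated positively with 10 of the 12 and negatively with 0, against 3.9% and 4.04% of all genes. Without BDL day 21 replicate 1 these were 8 and 0, with r falling from 0.642 to 0.475 for Upp2 and from 0.507 to 0.381 for Alas1. Arntl was correlated negatively with 9 and positively with 1, against 3.17% and 5.33% of all genes, and with 5 and 1 without that array.

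Genes of the cues that set the liver clock were called as follows, against 13.3%, 10.2%, 19.2% and 25.2% of all genes at days 1, 3, 7 and 21. For feeding, Igfbp1, a fasting-induced binding protein, was higher on all 4 days (1.76 ± 0.41, 2.06 ± 0.47, 1.66 ± 0.38 and 1.63 ± 0.38). At day 1 Pdk4 was higher (0.93 ± 0.27) and G6pc (-3.23 ± 0.64) and Srebf1 (-1.06 ± 0.32) lower, and 5 feeding genes were tested. Pdk4 was also higher at day 21 (0.72 ± 0.25). For glucocorticoids, Fkbp5 was higher at day 1 (1.01 ± 0.34) and day 3 (1.25 ± 0.39), and of 4 genes no other was called on those days; Sgk1 was higher at day 21 (0.82 ± 0.24). For temperature, none of 6 was called at days 1 and 3. At day 7 Hspa1a was higher (0.80 ± 0.24) and Hsph1 lower (-0.92 ± 0.33), and at day 21 Cirbp, a cold-inducible RNA-binding protein, was higher (0.60 ± 0.20) and Hsph1 lower (-1.20 ± 0.33). The part of these cues in the clock gene differences was not tested.

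Many calls of the cue genes were lost on leaving out 1 array. Igfbp1 was not called at day 1 without sham replicate 1 (1.17, adjusted p = 0.0826) or at day 3 without sham replicate 2 (1.91, 0.0797), and Srebf1 at day 1 was at -0.77 (0.187) without sham replicate 3. Fkbp5 lost its call at day 1 without any 1 of BDL replicates 1 to 4 and the 3 sham arrays (0.90 to 1.20, adjusted p 0.0506 to 0.167). At day 3 Fkbp5 was at 0.50 (adjusted p = 0.645) without sham replicate 2 and at 1.13 to 1.25 (0.0570 to 0.0770) without any 1 of BDL replicates 1, 3, 4 and 5. Sgk1 at day 21 was at 0.69 (adjusted p = 0.0541) without sham replicate 1. Pdk4 lost its call without any 1 of 3 arrays at day 1 (BDL replicate 4, sham replicates 1 and 2; adjusted p 0.0552 to 0.111) and of 5 at day 21 (BDL replicates 2 and 4, sham replicates 1, 2 and 3; 0.0557 to 0.190). Of the temperature genes, Hsph1 at day 7 lost its call without any 1 array but sham replicate 2 (adjusted p 0.0591 to 0.142), Hspa1a without BDL replicate 3 or 4 or sham replicate 2 or 3 (0.0544 to 0.0675), and Cirbp without BDL replicate 3 or 5 or sham replicate 1 or 4 (0.0562 to 0.0884).

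Genes whose deviations were most like those of a member were looked up over all genes tested, as a description over 29 arrays. For Arntl the 5 highest r were those of Dtx4 (0.869), Ypel2 (0.863), Clpx (0.857), Rfxank (0.844) and Mical2 (0.823). For Dbp they were those of Usp2 (0.860), Foxo3 (0.817), Lpin2 (0.815), Mtss1 (0.807) and Gys2 (0.788). For Nr1d1 they were AI987944 (0.813), Copb1 (0.763), Plpp5 (0.758), Srebf2 (0.745) and H13 (0.738). These lists shared no gene, as had to be so for Arntl and Dbp, which ran opposite to each other (r = -0.882). The same genes stood at the other end: Ypel2 (-0.886), Mical2 (-0.838) and Clpx (-0.823) were among the 5 lowest r for Dbp. Usp2 (-0.774) was among the 5 lowest for Arntl.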

How the data were processed

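Liver RNA of 29 mice was measured on 1 Affymetrix array each. The deposited values are log2 levels that the authors made with RMA in oligo 1.52.0, per the submitters' processing notes; RMA corrects background, brings arrays to 1 distribution and summarises probes, so a difference understates a change near background. Row identifiers match the annotation of the Mouse Gene 2.0 ST design, from which genes were named, although the labels' protocols name a different Affymetrix mouse array. Of 41345 rows, 23521 had 1 symbol, 1814 several and 16010 are unnamed here; 23328 of the 1-symbol rows were found in a RefSeq table of GRCm38.p6. No depth exists for arrays; their number limits the precision.

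The row of highest mean was kept per gene. Genes above log2 5 in at least 3 arrays were tested in limma 3.58.1 (R 4.3.3; lmFit, eBayes) with 1 mean per group over all 29 arrays, two-sided, Benjamini-Hochberg over 14699 genes, threshold 0.05. Groups came from the treatment and time labels. Correlations used deviations from group means, permuted within groups. The scripts were tested on simulated data. Members, lists and tests were chosen with earlier results of these data known, and the correlations with further genes and array properties, and the count of opposite sides, were added after seeing the data. All members were to be named whatever their result, plus Per1, Cry2, Hlf, Nfil3, Bhlhe41 and Ciart, up to 4 called genes of each list with the largest change, and the 5 genes most like Arntl, Dbp and Nr1d1; Noct, past that rank, is counted only. Per2 was not named because its row has 2 symbols, which left 36 pairs in place of the planned 45, and no list of genes like it.

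The alternatives were no filter, a stricter one (log2 6), the mean of a gene's rows, cyclic loess scaling, only the groups compared, robust eBayes, array weights, the 4 arrays that stand apart as a term or left out, all 9 sham arrays as control, and each array left out. The p-values rest on the spread between livers.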

Additional observations from a re-analysis of the deposited data

Results flagged for a closer look

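In 6 of the 45 sets of 1 gene in 1 group of 4 or 5 livers, a single liver stood far from the others (Dixon's criterion, which chance meets in about 1 in 20 sets). Of the 6, 4 were the same liver, replicate 1 of BDL day 21: on the log2 scale it was the lowest of its group in Arntl, at 5.72, and in Npas2, at 5.41, and the highest in Dbp, at 10.05, and in Tef, at 7.47. The genes are correlated within groups, so these 4 are not independent of each other. Replicate 1 of BDL day 7 was the highest of its group in Cry1, at 6.12, and replicate 2 of BDL day 3 the highest in Per3, at 7.72.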

How the results depend on the processing

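Over the 90 member results (9 genes, 10 comparisons) no direction of a called value reversed under any alternative, and 30 changed their call at least once. Of the 14 calls, 5 held throughout: Npas2, Dbp and Nr1d2 at day 21 against sham day 7, and Nr1d1 and Cry1 between BDL days 3 and 7. Counts of called members moved as follows. From BDL day 1 to day 3 the 2 calls became 0 with no filter, with cyclic loess and with the 4 arrays as a term, 4 with only the groups compared, and 1 with robust eBayes (Nr1d2) and with array weights (Per3). Without the 4 arrays both calls were lost and 1 other, Npas2, was made (-1.16, adjusted p = 0.0496). At day 1 the 0 calls became 2 with the stricter filter and with cyclic loess, 1 with the mean of rows and with the 4 arrays as a term, and 8 against all 9 sham arrays. At day 7 the 1 call became 2 with only the groups compared and with array weights. From BDL day 7 to day 21 array weights gave 3 in place of 0, and for the day 7 minus day 1 effect the 4 arrays as a term gave 1 in place of 0. The 18 correlated pairs became 0 in the sham arrays alone. Leaving out 1 array at a time gave 0 to 2 calls at days 1 and 3, 0 to 1 at day 7, 5 to 7 at day 21, 0 to 4 both from BDL day 1 to 3 and from day 7 to 21, 0 to 1 for the effect difference, 0 to 3 between sham days 1 and 7, 6 to 8 by the F-test and 13 to 20 pairs. The cause of these moves was not tested.

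Counts over all genes moved by more than 1.5 times in 42 cases, 11 of them in sham day 1 against day 7 (604 calls; 0 with only those groups, 1879 with array weights, 1 both with the 4 arrays as a term and without them, 3040 without sham day 1 replicate 2, 2 without its replicate 3). BDL against sham at day 1 went from 1958 to 704 with only the groups compared, 597 without the 4 arrays and 3198 against all sham; at day 3 from 1493 to 921 and 3481, and at day 7 from 2819 to 4375 against all sham. Sham day 3 holds 2 livers, and without 1 of them the day 3 count was 881 or 668. No paired analysis was possible because the labels carry animal numbers and no replicate number shared between groups.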
